A study of Mus musculus with 6 samples.

Results

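The genes described here encode the adhesion molecules by which leukocytes stop on vessels, enter tissue and hold on to other cells and to matrix: the integrin chains, the selectins and their ligand, and adhesion molecules of the immunoglobulin superfamily, with Cd44 and Cd47. They were chosen by gene symbol alone: every gene whose symbol starts with Itga or Itgb, and Sele, Selp, Selplg, Icam1, Vcam1, Madcam1, Chl1, L1cam, Ncam1, Nrcam, Alcam, Jam2, Jam3, F11r, Cd44 and Cd47. The array held 44 such genes, measured by 67 probes, among 16358 genes with a symbol. Itga10, Itgad and Itgb8 had no matched probe and are not analysed here. The symbol rule also takes in 4 genes that encode no integrin chain, namely Itgb1bp1, Itgb1bp2, Itgb3bp and Itgbl1.

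Total RNA of whole lung was hybridised to 6 single-colour Agilent arrays, 2 for each of 3 groups of C57BL/6 mice. The groups were WT mice without a transgene, mice labelled hCD2-T-bet tg/wt and mice labelled hCD2-T-bet tg/tg. The transgene carries T-bet, the T-box transcription factor encoded by Tbx21 that directs T helper 1 cells, under the control of human CD2 sequences, and its overexpression in T cells induces pulmonary alveolar proteinosis, a filling of the air spaces with surfactant material. The labels used here state neither age nor sex nor any treatment. Whether the 2 arrays of a group stem from different mice is not stated, and a p-value then covers the array-to-array spread alone, which can be technical. A level below is the log2 processed signal minus the 75th percentile of its array, and a difference is one group's mean level minus another's. Differences were tested with limma in 1 fit of all 12968 genes that were well above background on at least 2 arrays, with Benjamini-Hochberg adjustment over those genes and a threshold of 0.05.

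Tbx21 had levels of -0.70 and -0.71 in WT, 1.30 and 1.34 on the tg/wt arrays, and 3.25 and 3.26 on the tg/tg arrays, so each array stood where its label places it. The 75th percentile lay between 794 and 1204 intensity units per array and probes well above background made up 62.0% to 66.8%. Sftpc, the surfactant protein C gene that defines alveolar type 2 cells of the lung, had a level between 9.06 and 9.58 on the 6 arrays. The WT and tg/tg arrays shared slide 1 and the tg/wt arrays lay on slide 2, so slide and group cannot be told apart in any comparison with tg/wt. Heart muscle, which whole lung can carry in the walls of its veins, was also present: 9 of its markers had a summed level of 7.92 to 7.94 in WT, 6.95 to 6.96 in tg/wt and 4.13 to 4.15 in tg/tg. In whole tissue, fewer cells of a type and less RNA per cell cannot be told apart.

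Integrins are pairs of an alpha and a beta chain that switch between a bent, resting form and an extended form that binds its ligand. Selectins on platelets and activated vessel walls slow passing leukocytes by binding sugars on carriers such as P-selectin glycoprotein ligand 1. Activated integrins then grip Icam1 and Vcam1 on the endothelium and carry the cell across, while other integrins tie resident cells to fibronectin, laminin and collagen.

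In tg/tg lung the genes of the leukocyte beta-2 integrins, P-selectin, its ligand, Icam1, Vcam1 and Cd44 were all higher than in WT, and the neural adhesion gene Chl1 was 77.4-fold higher. The largest falls were in Itgb1bp2, which encodes the muscle protein melusin, in Itga8, the alpha-8 integrin chain of fibroblasts and smooth muscle, and in Itgae, the alpha-E chain that marks lymphocytes and dendritic cells of epithelia. Of the 44 genes, 41 passed the filter on dim probes and were tested. In tg/tg against WT 36 of the 41 passed the threshold, 21 higher and 15 lower, which is 87.8% beside 74.7% of all tested genes. Among all tested genes 33.8% were higher and 40.8% lower. A difference past the threshold and over 2-fold was found in 18 of the 41, beside 23.1% of all tested genes. The median size of the difference, without its sign, was 0.84 for the 41 and 0.42 for all tested genes, and the signed medians were 0.41 and -0.05. With most genes of the array past the threshold in this comparison, passing it says little about a gene by itself, and the sizes below carry more. Arrays of tg/tg and WT did not overlap in 39 of the 41 and in 11401 of all 12968 tested genes. For tg/wt and WT this held in 31 and 9392, so a lack of overlap also says little by itself.

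**Figure D1:**
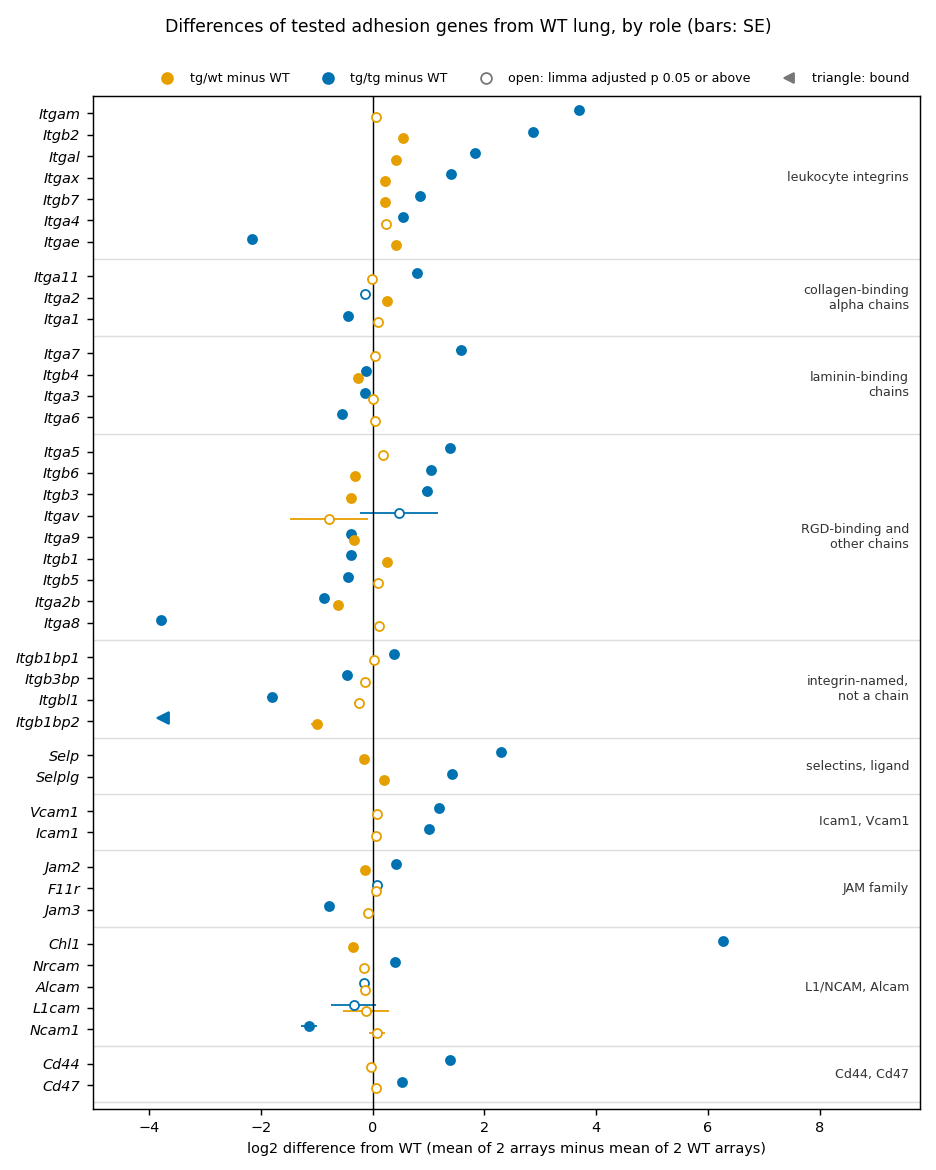
Log2 difference from WT (x axis, with its SE) of the 41 tested adhesion genes, grouped by role, for tg/wt (orange) and tg/tg (blue), each over 2 arrays. Filled points passed the limma threshold: Chl1 lies farthest to the right at 6.27, Itga8 lies to the left at -3.79, the triangle of Itgb1bp2 marks its bound in tg/tg (at least 13.4-fold lower), and the tg/wt points lie between -1.0 and 0.54.

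The 250 bases before the transcription start of 5 genes are given because these genes moved most or stand for a role: Chl1 and Itgam as the largest rises, Selp and Icam1 for the vessel wall, and Itga8 as the largest fall of an integrin chain. They come from RefSeq on GRCm38.p6 and run 5′ to 3′ on the strand of the gene. Capitals mark letters found by a search on both strands for 5 motifs: the NF-kB site, the interferon-stimulated element, TTCNNNGAA of the gamma-activated site, TCACACC of T-box factors and GAGGAAG of PU.1.
Chl1 (chr6:103510626-103510875, plus strand): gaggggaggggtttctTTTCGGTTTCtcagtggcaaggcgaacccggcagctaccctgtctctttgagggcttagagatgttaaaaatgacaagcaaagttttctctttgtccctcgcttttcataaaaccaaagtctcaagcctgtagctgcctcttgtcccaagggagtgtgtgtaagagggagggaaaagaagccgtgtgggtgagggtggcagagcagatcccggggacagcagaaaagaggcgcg
Itgam (chr7:128062390-128062639, plus strand): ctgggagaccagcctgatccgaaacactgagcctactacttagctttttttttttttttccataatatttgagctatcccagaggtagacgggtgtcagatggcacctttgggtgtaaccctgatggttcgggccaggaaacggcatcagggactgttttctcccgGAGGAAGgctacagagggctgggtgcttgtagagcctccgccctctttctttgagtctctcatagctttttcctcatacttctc
Selp (chr1:164115014-164115263, plus strand): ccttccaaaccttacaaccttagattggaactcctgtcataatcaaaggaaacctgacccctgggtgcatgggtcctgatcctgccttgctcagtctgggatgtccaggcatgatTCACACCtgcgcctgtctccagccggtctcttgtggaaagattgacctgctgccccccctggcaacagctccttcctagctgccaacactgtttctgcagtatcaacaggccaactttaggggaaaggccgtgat
Icam1 (chr9:21015690-21015939, plus strand): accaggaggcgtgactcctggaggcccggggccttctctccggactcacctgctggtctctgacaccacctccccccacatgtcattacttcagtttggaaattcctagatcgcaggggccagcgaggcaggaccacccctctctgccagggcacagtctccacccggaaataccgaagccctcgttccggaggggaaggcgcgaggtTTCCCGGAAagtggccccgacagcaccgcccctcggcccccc
Itga8 (chr2:12301945-12302194, minus strand): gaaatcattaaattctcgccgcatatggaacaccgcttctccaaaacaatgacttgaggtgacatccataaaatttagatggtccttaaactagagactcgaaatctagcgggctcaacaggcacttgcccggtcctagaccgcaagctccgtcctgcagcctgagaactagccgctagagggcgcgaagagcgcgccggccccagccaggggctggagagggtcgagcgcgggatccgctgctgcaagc

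The capitals in the Chl1 window are the interferon-stimulated element on the opposite strand, 234 to 225 bases before the start, and those in the Itgam window are the PU.1 letters, 84 to 78 bases before it. Selp holds the T-box letters 135 to 129 bases before its start, and Icam1 a gamma-activated site at 42 to 34 bases. The Itga8 window held none of the 5. A window was found for 31 of the 44 genes, 35 windows in all, and among those without one are Itgb2, Itgal, Itgae and Vcam1. PU.1 letters occurred in 10 of the 35 windows, from 9 of the 31 genes (Alcam, Cd44, Itga11, Itga2b, Itgam, Itgav, Itgb2l, Itgb6 and L1cam), and in 10.6% of the 32851 windows of all genes. The T-box letters occurred in 4 of the 35 (Cd47, Itga4 and Selp) and in 3.33% of all windows, and the gamma-activated site in 3 (Icam1, Itgb3bp and Sele) and in 7.02%. The interferon-stimulated element occurred in 3 of the 35 (Chl1, Itga2b and Itga3) and in 2.98% of all windows, and the NF-kB letters in 1 (Madcam1) and in 0.980%. Such matches describe the letters of these windows only. Sites with other letters, such as other forms of the NF-kB site, were not searched for, so a window without capitals for a motif may still hold one. The motifs do not overlap in the 5 windows shown.

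Of the 7 tested leukocyte integrin genes 6 were higher in tg/tg than in WT and 1, Itgae, was lower, with a median difference of 1.40. Itgb2 encodes CD18, the beta-2 chain that pairs with each of the alpha-L, alpha-M and alpha-X chains. Its levels were 0.75 and 0.77 in WT, 1.25 and 1.34 on the tg/wt arrays, and 3.63 and 3.63 on the tg/tg arrays. The groups did not overlap and stood in the order of transgene dose. Itgb2 was 7.29-fold above WT in tg/tg (log2 difference 2.87, SE 0.0408, adjusted p = 1.33e-06).

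Itgam encodes CD11b, the alpha-M chain of complement receptor 3 on neutrophils, monocytes and many macrophages. It had levels of -3.71 and -3.72 in WT, -3.56 and -3.75 on the tg/wt arrays, and 0.00 and -0.03 on the tg/tg arrays. WT and tg/wt overlapped, and both tg/tg arrays stood far above them. The rise in tg/tg over WT was 13.0-fold (log2 difference 3.70, SE 0.0679, adjusted p = 2.47e-06), while tg/wt differed from WT by 0.06 (adjusted p = 0.532).

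Itgal encodes CD11a, the alpha-L chain of LFA-1, the integrin that lymphocytes use to bind Icam1. Levels of Itgal were -0.77 and -0.97 in WT, -0.39 and -0.51 on the tg/wt arrays, and 0.95 and 0.96 on the tg/tg arrays, with no overlap between groups. The difference of tg/tg from WT was 1.82 (SE 0.0820, 3.54-fold, adjusted p = 3.30e-05). Itgax, the gene of the alpha-X chain CD11c that alveolar macrophages and dendritic cells carry, had levels of 1.55 and 1.48 in WT, 1.76 and 1.72 on the tg/wt arrays, and 2.89 and 2.95 on the tg/tg arrays. It too rose from WT to tg/tg without overlap, by 1.40 (SE 0.0435, 2.65-fold, adjusted p = 9.95e-06). The small tg/wt differences of Itgal (0.42) and Itgax (0.22), measured on another slide than WT, were unstable. Of 19 alternative ways of processing the values, 5 lost the call of Itgal and 7 that of Itgax. With the deposited series table the limma adjusted p of Itgax was 0.0620. Of the alpha partners of CD18 measured, the alpha-M gene thus showed the largest difference from WT in tg/tg and no call in tg/wt.

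Itgb2l, a close relative of Itgb2, was well above background on 1 tg/tg array and on no other array, so it was not tested. Its measured levels were -7.35 and -7.60 in WT, -7.73 and -7.43 on the tg/wt arrays, and -5.12 and -5.26 on the tg/tg arrays, and no fold is given for it.

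Itga4 and Itgb7 encode the chains of the gut- and mucosa-homing integrin alpha-4 beta-7, and the alpha-4 chain also pairs with beta-1 to bind Vcam1. Itgb7 had levels of 2.41 and 2.38 in WT, 2.56 and 2.66 on the tg/wt arrays, and 3.24 and 3.23 on the tg/tg arrays. The groups stood apart in that order, and tg/tg exceeded WT by 0.84 (SE 0.0465, 1.79-fold, adjusted p = 6.70e-05). The tg/wt call of Itgb7 (0.22) was lost in 8 of 19 alternatives. Itga4 had levels of -0.77 and -0.82 in WT, -0.60 and -0.53 on the tg/wt arrays, and -0.14 and -0.36 on the tg/tg arrays. Its difference of tg/tg from WT was 0.55 (SE 0.0820, adjusted p = 0.00265), and a second probe of the gene gave 1.06. The third was well above background on 1 tg/tg array, 1 tg/wt array and no WT array. Its difference of 0.95 did not pass in a fit of every probe (limma adjusted p = 0.0691). The wider gap between the tg/tg arrays of Itga4 left them still above every other array.

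Itgae encodes CD103, the alpha-E chain that pairs with beta-7 and binds E-cadherin on epithelium. It went the opposite way from its partner chain in tg/tg. Levels of Itgae were -0.58 and -0.57 in WT, -0.22 and -0.07 on the tg/wt arrays, and -2.70 and -2.78 on the tg/tg arrays. The tg/wt arrays were the highest and the tg/tg arrays by far the lowest. Itgae was 4.48-fold lower in tg/tg than in WT (log2 difference -2.16, SE 0.0625, adjusted p = 8.05e-06) and 6.02-fold lower than in tg/wt (-2.59, adjusted p = 5.93e-06), and it was higher in tg/wt than in WT by 0.43 (adjusted p = 0.0116).

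**Figure D2:**
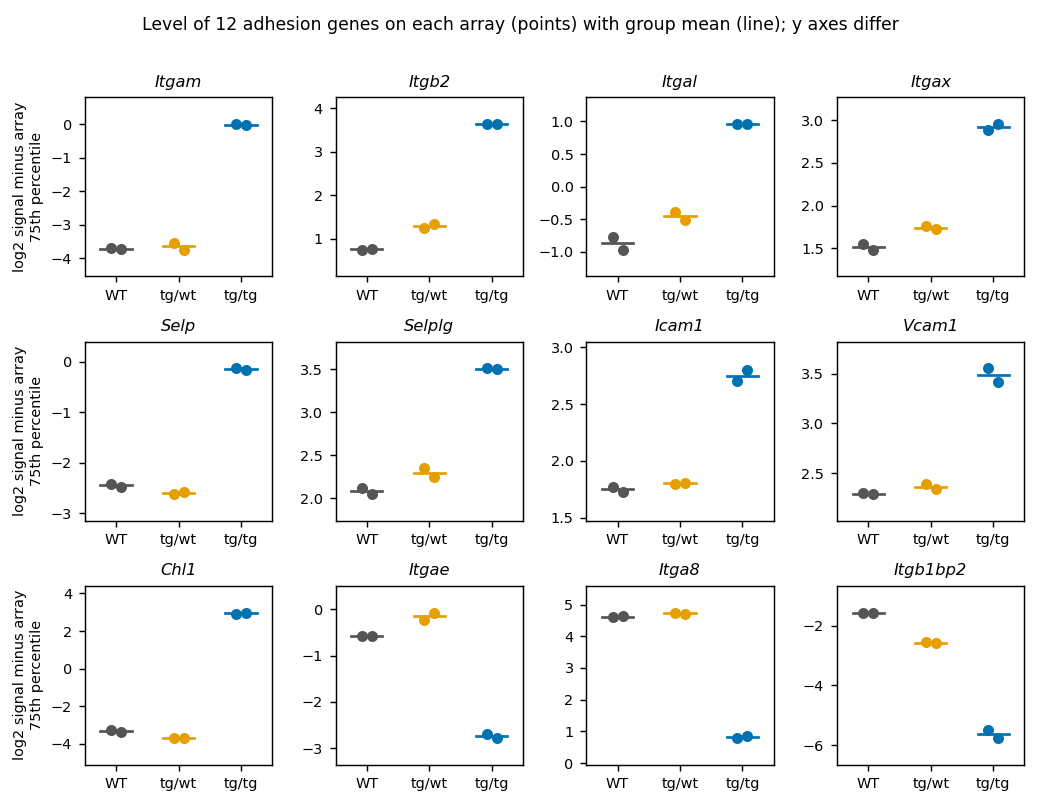
Level (log2 signal minus the 75th percentile of the array, y axis, scaled per gene) of 12 adhesion genes on each of the 6 arrays, with a line at each group's mean. Itgb2, Itgal and Itgax step up from WT to tg/wt to tg/tg, and their tg/wt calls did not hold under every alternative. Itgam, Selp, Icam1, Vcam1 and Chl1 are high in tg/tg alone, Itgae and Itga8 are low there, and Itgb1bp2 steps down.

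Marker lists of the cells that carry these integrins differed in direction. All 9 tested markers of monocytes and interstitial macrophages were higher in tg/tg, led by Ms4a7 (4.92), Fcgr1 (4.48) and C1qb (4.06), and their summed level was 4.02 to 4.08 in WT, 4.70 to 4.72 in tg/wt and 7.73 to 7.78 in tg/tg. All 10 neutrophil markers were higher in tg/tg than in WT and all 10 lower in tg/wt than in WT, with a summed level of 5.82 to 5.85 in WT, 4.0 to 4.03 in tg/wt and 6.12 to 6.16 in tg/tg. All 11 T cell markers were higher in tg/tg, with a summed level of 2.27 to 2.35 in WT, 3.32 in both tg/wt arrays and 5.69 to 5.70 in tg/tg. Their part in the rises of Itgb2, Itgam, Itgal, Itgax, Itgb7 and Itga4 was not tested. For Itgax, 9 of 10 alveolar macrophage markers were lower in tg/tg and 1, Marco, was higher, with a summed level of 6.97 to 6.99 in WT, 6.84 to 6.89 in tg/wt and 6.60 in both tg/tg arrays.

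Beside the fall of Itgae, 4 of 7 dendritic cell markers were lower in tg/tg, among them Cd209a (-3.21, not well above background in tg/tg, so at least 1.99-fold lower) and Ccr7 (-1.61), and 1, Batf3, was higher (2.12). Their median difference was -1.12 while their summed level went the other way, from 0.80 to 0.82 in WT and 1.31 to 1.37 in tg/wt to 1.84 to 1.90 in tg/tg. In tg/wt 5 of the 7 were higher than in WT and 1 was lower. The part of these cells in the level of Itgae was not tested.

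**Figure D3:**
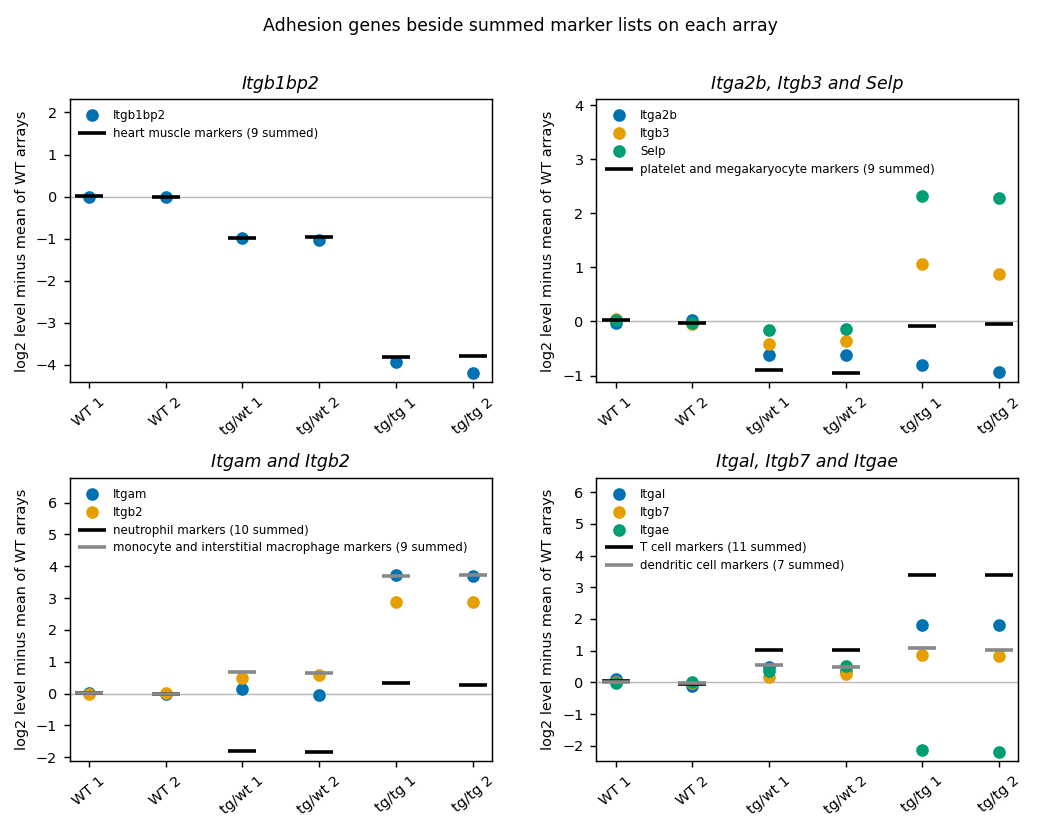
Level on each array minus the mean of the WT arrays (log2, y axis) for adhesion genes (points) and for the summed signal of marker lists (bars). Itgb1bp2 follows the heart muscle markers down to about -4, Itga2b stays low in tg/tg while Itgb3 and Selp are high, Itgam and Itgb2 are high in tg/tg beside the monocyte and macrophage markers, and Itgae falls in tg/tg where the T cell markers are highest.

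Among the selectins and their ligand, both tested genes were higher in tg/tg and Sele was not measurable. Selp encodes P-selectin, which platelets and endothelial cells store in granules and bring to their surface on activation. It had levels of -2.42 and -2.48 in WT, -2.62 and -2.59 on the tg/wt arrays, and -0.13 and -0.16 on the tg/tg arrays. Selp was 4.94-fold above WT in tg/tg (log2 difference 2.31, SE 0.0379, adjusted p = 1.83e-06) and slightly lower in tg/wt (-0.15, adjusted p = 0.0446). A second, dimmer probe gave 2.06 in tg/tg.

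Most platelet and endothelial markers were lower in tg/tg than in WT, where Selp was higher. Of 9 platelet and megakaryocyte markers, 8 were lower and 1, Pf4, was higher in tg/tg than in WT, and all 9 were lower in tg/wt. Their summed level was 4.23 to 4.28 in WT, 3.29 to 3.36 in tg/wt and 4.16 to 4.20 in tg/tg. In tg/tg against tg/wt the summed level was higher, but 5 of the 9 markers were lower and 2 higher, with a median difference of -0.45. Of 14 endothelial markers, 13 were lower in tg/tg, led by Tek (-1.73), Kdr (-1.70) and Ptprb (-1.69), and 1, Sox17, was higher (0.62). Their summed level was 9.14 in both WT arrays, 9.03 to 9.07 in tg/wt and 8.0 in both tg/tg arrays. The part of platelets and endothelial cells in the level of Selp was not tested.

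Selplg, the gene of P-selectin glycoprotein ligand 1 on leukocytes, had levels of 2.12 and 2.06 in WT, 2.35 and 2.25 on the tg/wt arrays, and 3.51 and 3.50 on the tg/tg arrays. It rose without overlap by 1.42 in tg/tg (SE 0.0492, 2.67-fold, adjusted p = 1.42e-05) and by 0.21 in tg/wt (adjusted p = 0.0369), and its second probe gave 1.55 and 0.48. The tg/wt call of Selplg was lost in 10 of 19 alternatives, while its second probe passed in tg/wt in a fit of every probe (limma adjusted p = 0.00335). Sele, which encodes the endothelial E-selectin, did not rise well above background on any array, with measured levels of -5.85 and -7.67 in WT, -7.18 and -7.28 on the tg/wt arrays, and -5.28 and -5.57 on the tg/tg arrays, and no fold is given for it.

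The tested ligands of the leukocyte integrins, Icam1 and Vcam1, rose in tg/tg alone. Icam1 is the ligand of the CD18 integrins and is found on vessel walls, epithelium and myeloid cells. Levels of Icam1 were 1.77 and 1.73 in WT, 1.80 and 1.81 on the tg/wt arrays, and 2.71 and 2.80 on the tg/tg arrays. The tg/tg arrays stood apart from the rest, at 2.0-fold the WT level (log2 difference 1.0, SE 0.0450, adjusted p = 3.31e-05), and tg/wt differed from WT by 0.05 (adjusted p = 0.414).

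Vcam1, which binds alpha-4 beta-1, had levels of 2.30 and 2.30 in WT, 2.40 and 2.34 on the tg/wt arrays, and 3.55 and 3.42 on the tg/tg arrays. It was 2.27-fold higher in tg/tg (log2 difference 1.18, SE 0.0563, adjusted p = 3.98e-05), its second probe gave 1.43, and tg/wt differed from WT by 0.07 (adjusted p = 0.392). Both rises stood beside falls of 13 of the 14 endothelial markers and rises of all 9 markers of monocytes and interstitial macrophages. The part of these cells in the levels of Icam1 and Vcam1 was not tested. Madcam1, the vessel ligand of alpha-4 beta-7 in gut tissue, did not rise well above background on any array and was not tested.

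Cd44, the receptor for hyaluronan on leukocytes and many other cells, had levels of 2.95 and 3.0 in WT, 2.90 and 2.98 on the tg/wt arrays, and 4.35 and 4.38 on the tg/tg arrays. WT and tg/wt overlapped and tg/tg was 2.62-fold above WT (log2 difference 1.39, SE 0.0454, adjusted p = 1.17e-05). A second probe of Cd44 gave 1.42 in tg/tg, and in tg/wt it gave 0.28 where the first gave -0.03. The third, not well above background in WT or tg/wt, exceeded WT at least 2.05-fold on the tg/tg arrays. Cd47 encodes the ligand of the inhibitory receptor Sirpa on phagocytes. Its levels were 3.91 and 3.92 in WT, 3.97 and 3.99 on the tg/wt arrays, and 4.44 and 4.45 on the tg/tg arrays. The rise over WT was 0.53 (SE 0.0316, 1.45-fold, adjusted p = 8.59e-05), small in size and, as for most tested genes, without overlap.

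The chains that bind fibronectin and other RGD-bearing ligands, or make up the remaining pairs, moved both ways: of 9 tested genes 3 were higher in tg/tg, 5 were lower and 1 did not pass. Itga5 encodes the alpha-5 chain of the fibronectin receptor. It had levels of -1.60 and -1.49 in WT, -1.43 and -1.31 on the tg/wt arrays, and -0.19 and -0.14 on the tg/tg arrays. Its rise in tg/tg was 2.61-fold (log2 difference 1.38, SE 0.0635, adjusted p = 3.53e-05), and the tg/wt arrays lay above the WT arrays by a difference that did not pass (0.18, adjusted p = 0.0988).

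Itgb6 encodes the epithelial beta-6 chain, which pairs with alpha-v and releases TGF-beta from its latent complex. Levels of Itgb6 were 1.03 and 1.07 in WT, 0.74 and 0.73 on the tg/wt arrays, and 2.01 and 2.18 on the tg/tg arrays. The gene was lowest in tg/wt (-0.32 against WT, adjusted p = 0.0277) and highest in tg/tg (1.05, SE 0.0655, 2.07-fold, adjusted p = 1.05e-04). All 3 probes showed both directions, with 0.95 and 1.34 for the others in tg/tg and -0.65 and -0.49 in tg/wt.

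Itgb3 encodes the beta-3 chain of the platelet fibrinogen receptor and of the vitronectin receptor, and Itga2b its platelet partner, the alpha-IIb chain. Itgb3 had levels of -1.34 and -1.44 in WT, -1.81 and -1.75 on the tg/wt arrays, and -0.33 and -0.51 on the tg/tg arrays. Itga2b had -0.82 and -0.75 in WT, -1.41 and -1.40 on the tg/wt arrays, and -1.60 and -1.72 on the tg/tg arrays. The partner chains thus went together in tg/wt and apart in tg/tg. Itgb3 was lower in tg/wt (-0.39, adjusted p = 0.0242) and higher in tg/tg (0.97, SE 0.0767, adjusted p = 2.46e-04), whereas Itga2b was lower in both (-0.62, adjusted p = 0.0030, and -0.87, SE 0.0539, adjusted p = 9.90e-05). Beside it, the platelet markers named above with Selp were all lower in tg/wt, and in tg/tg 8 of 9 were lower while Pf4 was higher and their summed level lay near that of WT. Their part in the fall of Itga2b was not tested.

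Itga8, the alpha-8 chain, pairs with beta-1 and binds nephronectin in the matrix. It had levels of 4.60 and 4.64 in WT, 4.74 and 4.70 on the tg/wt arrays, and 0.80 and 0.85 on the tg/tg arrays. WT and tg/wt lay close together, and the tg/tg arrays stood 13.9-fold below WT (log2 difference -3.79, SE 0.0395, adjusted p = 7.14e-07). A second probe of Itga8 gave -3.73, and the third, not well above background on the tg/tg arrays, was at least 5.19-fold lower there. Beside it, 5 of 8 fibroblast markers were lower in tg/tg, led by Tcf21 (-2.77), Lum (-1.40) and Pdgfra (-0.97), and 3 were higher, while their summed level was 7.35 to 7.38 in WT, 7.60 to 7.64 in tg/wt and 7.60 to 7.62 in tg/tg. Of 8 smooth muscle and pericyte markers 7 were lower in tg/tg and none higher, led by Cnn1 (-2.10), Myh11 (-1.53) and Des (-1.40), with a summed level of 7.27 to 7.28 in WT, 7.36 in both tg/wt arrays and 6.26 to 6.29 in tg/tg. Their part in the fall of Itga8 was not tested.

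Itgb1, the beta chain shared by many tissue integrins, and Itgb5, a partner of alpha-v, fell by less. Itgb1 had levels of 2.45 and 2.5 in WT, 2.70 and 2.77 on the tg/wt arrays, and 2.11 and 2.06 on the tg/tg arrays. It was higher in tg/wt (0.26, adjusted p = 0.0190) and lower in tg/tg (-0.39, SE 0.0458, adjusted p = 0.00106), but its second probe gave 0.02 in tg/tg, so the fall in tg/tg rests on 1 of 2 probes. Itgb5 had levels of 5.30 and 5.31 in WT, 5.42 and 5.38 on the tg/wt arrays, and 4.87 and 4.85 on the tg/tg arrays, a fall of 0.45 in tg/tg (SE 0.0334, adjusted p = 2.0e-04). Itga9, a receptor chain for tenascin and Vcam1, was lower in both genotypes (-0.34 in tg/wt, adjusted p = 0.0383, and -0.38 in tg/tg, adjusted p = 0.00944). The tg/wt call of Itga9 was unstable: it was lost in 8 of 19 alternatives, among them the deposited series table (limma adjusted p = 0.0549) and no filter on dim probes (0.0732). Itgav, the alpha-v chain that Itgb3, Itgb5 and Itgb6 share, could not be judged: its probe was near background, with levels of -6.12 and -4.01 on the WT arrays, and the difference of tg/tg from WT was 0.48 with an SE of 0.695 (adjusted p = 0.559). Without WT replicate 1 it was -0.58 (adjusted p = 0.0471) and without WT replicate 2 it was 1.53 (adjusted p = 0.00281), so 1 WT array sets its direction.

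Of the 3 tested alpha chains that bind collagen, 1 was higher in tg/tg, 1 lower and 1 did not pass. Itga11, a fibroblast chain, rose by 0.79 (SE 0.0838, adjusted p = 7.41e-04). Itga1 had levels of 0.09 and 0.15 in WT, 0.24 and 0.21 on the tg/wt arrays, and -0.27 and -0.37 on the tg/tg arrays, and fell by 0.44 in tg/tg (SE 0.0509, adjusted p = 9.96e-04). Its second probe also fell in tg/tg against WT, by 0.21, but the 2 probes disagreed elsewhere. They gave 0.10 and -0.33 in tg/wt against WT, and -0.54 and 0.12 in tg/tg against tg/wt. Itga2, a platelet and epithelial chain whose probe was dim, differed from WT by -0.13 in tg/tg (adjusted p = 0.130) and by 0.26 in tg/wt (adjusted p = 0.0474). The tg/wt call of Itga2 was unstable: it was lost in 12 of 19 alternatives and reversed in 1, and with a variance trend the limma adjusted p was 0.315.

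All 4 laminin-binding chains passed the threshold in tg/tg, but with unlike sizes. Itga7, known from skeletal and smooth muscle, had levels of -1.86 and -1.82 in WT, -1.89 and -1.71 on the tg/wt arrays, and -0.20 and -0.34 on the tg/tg arrays. It rose 2.98-fold in tg/tg (log2 difference 1.58, SE 0.0824, adjusted p = 5.55e-05), its second probe gave 1.73, and WT and tg/wt overlapped. The rise of this muscle chain stood beside falls of the heart muscle markers (9 of 9) and of 7 of 8 smooth muscle and pericyte markers. The part of any cell type in the level of Itga7 was not tested. Itga6, which pairs with beta-4 in the hemidesmosomes of epithelium and with beta-1 elsewhere, had levels of 1.89 and 1.91 in WT, 1.87 and 2.03 on the tg/wt arrays, and 1.39 and 1.31 on the tg/tg arrays, a fall of 0.55 (SE 0.0666, adjusted p = 0.00118). Itga3 and Itgb4 were lower by 0.14 (adjusted p = 0.0219) and 0.12 (adjusted p = 0.0352). Both small calls were unstable: each was lost when either WT array was left out (adjusted p = 0.0634 and 0.115 for Itga3, 0.105 and 0.152 for Itgb4). Itga3 also missed the threshold without tg/tg replicate 1 (adjusted p = 0.0549) or 2 (0.0717), and Itgb4 without tg/wt replicate 1 (0.0527), tg/wt replicate 2 (0.0536) or tg/tg replicate 2 (0.115). The mean of the probes gave -0.04 for Itga3 (adjusted p = 0.299), and the dimmest probe of Itga3 pointed up by 0.08.

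The 4 genes with an integrin name that encode no chain all passed in tg/tg. Itgb1bp2, the gene of melusin, a beta-1 binding protein of heart and skeletal muscle, had levels of -1.56 and -1.56 in WT, -2.53 and -2.59 on the tg/wt arrays, and -5.50 and -5.76 on the tg/tg arrays. It stepped down without overlap and was not well above background on the tg/tg arrays, so that it was at least 13.4-fold lower than in WT (fitted log2 difference -4.07, adjusted p = 4.05e-06) and at least 6.71-fold lower than in tg/wt. In tg/wt it was lower than in WT by 1.0 (adjusted p = 0.00324). All 9 heart muscle markers were lower in tg/tg and 8 of 9 in tg/wt, with a median difference of -3.93 and -0.98, and their part in the fall of Itgb1bp2 was not tested.

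Itgbl1, a secreted protein with integrin-like EGF repeats, had levels of -1.45 and -1.47 in WT, -1.74 and -1.67 on the tg/wt arrays, and -3.38 and -3.15 on the tg/tg arrays, a 3.49-fold fall (log2 difference -1.80, SE 0.0835, adjusted p = 3.65e-05). Itgb3bp, a centromere protein also named for its binding to beta-3, had levels of -1.14 and -1.03 in WT, -1.26 and -1.17 on the tg/wt arrays, and -1.50 and -1.60 on the tg/tg arrays, and fell by 0.47 (SE 0.0650, adjusted p = 0.00205). Itgb1bp1, which binds the beta-1 tail and restrains its activation, rose by 0.38 (adjusted p = 0.00498).

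The junctional adhesion molecules of endothelium and epithelium split 3 ways. Jam2 had levels of 1.64 and 1.63 in WT, 1.49 and 1.51 on the tg/wt arrays, and 2.03 and 2.07 on the tg/tg arrays. It was higher in tg/tg by 0.41 (SE 0.0340, adjusted p = 2.80e-04) and lower in tg/wt by 0.14 (log2 difference -0.14, adjusted p = 0.0440), and its second probe gave 0.14 and 0.10. Jam3 had levels of 1.06 and 1.06 in WT, 1.01 and 0.93 on the tg/wt arrays, and 0.29 and 0.26 on the tg/tg arrays, a fall of 0.79 in tg/tg (SE 0.0404, adjusted p = 5.26e-05). F11r, which encodes JAM-A of tight junctions, differed by 0.08 in tg/tg (adjusted p = 0.187).

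Chl1, the close homologue of L1, is an adhesion molecule known from growing axons and glia. Its levels were -3.28 and -3.38 in WT, -3.66 and -3.68 on the tg/wt arrays, and 2.91 and 2.98 on the tg/tg arrays. The tg/tg arrays stood apart from all others by more than in any other of the 41 tested adhesion genes, with a log2 difference from WT of 6.27 (SE 0.0492, 77.4-fold, adjusted p = 6.38e-07). A second probe, not well above background on any WT array, was at least 50.2-fold higher in tg/tg. In tg/wt Chl1 was lower than in WT (-0.34, adjusted p = 0.0111). Among nerve and Schwann cell markers, the neuronal tubulin gene Tubb3 was higher in tg/tg than in WT by 1.37 (adjusted p = 2.02e-05) and S100b was lower (-0.89, adjusted p = 2.35e-05). The differences of Mbp (0.07, adjusted p = 0.159) and Prph (0.03, adjusted p = 0.916) did not pass. Snap25 was on the array but was not tested, and Sox10 had no matched probe. The part of such cells in the difference of Chl1 was not tested.

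The relatives of Chl1 moved little or the other way. Nrcam, a partner of neural ankyrins, rose by 0.41 in tg/tg (SE 0.0527, adjusted p = 0.00156). Ncam1, the neural cell adhesion molecule CD56, had low levels of -3.51 and -3.87 in WT, -3.51 and -3.70 on the tg/wt arrays, and -4.76 and -4.89 on the tg/tg arrays, and fell by 1.14 (SE 0.142, 2.20-fold, adjusted p = 0.00135). Alcam, the CD6 ligand CD166, differed by -0.16 in tg/tg and just missed the threshold (adjusted p = 0.0501), which it passed without tg/wt replicate 1 (0.0201) or tg/wt replicate 2 (0.0206). L1cam was near background and differed by -0.34 with an SE of 0.405 (adjusted p = 0.481).

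Other genes of the same machinery were counted from lists, to be read beside the 33.8% of all tested genes that were higher and the 40.8% that were lower. Of 26 tested genes of integrin activation and focal adhesion, 12 were higher and 9 lower in tg/tg, with a median of 0.16. The largest changes were rises of the haematopoietic genes Fyb (2.68, adjusted p = 2.5e-06), an adaptor that links T cell receptor signals to integrins, Parvg (2.12, adjusted p = 2.86e-06), the leukocyte parvin, and Skap1 (1.95, adjusted p = 3.45e-06), a partner of Fyb. Of 25 other adhesion molecules of leukocytes and endothelium, 13 were higher and 10 lower, with a median of 0.11. Cd84 (2.84, adjusted p = 8.87e-07), Cd96 (2.26, adjusted p = 1.61e-05) and Cd48 (2.13, adjusted p = 5.81e-06), all leukocyte receptors, changed most. This list shares Cd2 with the T cell markers and Pecam1 and Cdh5 with the endothelial markers.

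Of 14 genes that build selectin ligands, 8 were higher and 4 lower in tg/tg. Chst4, a sulfotransferase of high endothelial venules, fell by 2.08 (adjusted p = 2.36e-05), while the branching enzyme gene Gcnt1 rose by 1.06 (adjusted p = 6.71e-05) and the fucosyltransferase gene Fut4 by 0.94 (adjusted p = 2.06e-04). Of 20 integrin ligands of matrix and plasma, 10 were higher and 8 lower, led by a fall of Edil3 (-3.34, adjusted p = 1.12e-06), an RGD protein of endothelium, and rises of osteopontin, Spp1 (3.17, adjusted p = 1.18e-06), and of tenascin-C, Tnc (2.18, adjusted p = 7.24e-04). Nephronectin, the ligand of the alpha-8 integrin, is encoded by Npnt, which fell by 1.88 (adjusted p = 4.39e-06) in the same arrays in which Itga8 fell. Of 11 partners of Cd44 and Cd47, 4 were higher and 5 lower: the hyaluronan synthase gene Has2 rose by 3.57 (adjusted p = 1.18e-05), the hyaluronan receptor gene Lyve1 fell by 2.67 (adjusted p = 1.43e-06) and the Cd47 receptor gene Sirpa rose by 1.89 (adjusted p = 2.35e-05).

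In tg/wt against WT the changes were small. Of the 41 tested adhesion genes 17 passed, 8 higher and 9 lower, beside 27.9% of all tested genes (13.4% higher and 14.6% lower). Quantile normalization gave 11 higher and 8 lower. One gene, Itgb1bp2, changed by over 2-fold, beside 2.02% of all tested genes. The higher genes were Itgb2 (0.54, adjusted p = 0.00204), Itgae (0.43), Itgal (0.42), Itgb1 (0.26), Itga2 (0.26), Itgax (0.22), Itgb7 (0.22) and Selplg (0.21). The lower genes were Itgb1bp2 (-1.0), Itga2b (-0.62), Itgb3 (-0.39), Chl1 (-0.34), Itga9 (-0.34), Itgb6 (-0.32), Itgb4 (-0.27), Selp (-0.15) and Jam2 (-0.14). All 7 leukocyte integrin differences were above 0, between 0.06 and 0.54, and 5 passed. The count rests on the number of arrays: it was 5 without WT replicate 1, 4 without WT replicate 2, 8 without tg/wt replicate 1 and 4 without tg/wt replicate 2. Itgb2, Itga2b and Itgb1bp2 passed in each of these fits.

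Against the same WT arrays, 16 adhesion genes passed in both genotypes, 7 of them in opposite directions. These counts were not made for all tested genes, so whether they are unusual on this array is not known. Chl1, Itgb3, Itgb6, Jam2 and Selp were lower in tg/wt and higher in tg/tg, and Itgae and Itgb1 were higher in tg/wt and lower in tg/tg. The tg/wt calls of all 7 rest on few arrays. Those of Itgb3, Itgb6, Jam2 and Selp were lost without any 1 of the WT or tg/wt arrays, with adjusted p from 0.0667 to 0.203. That of Itgb1 was lost without WT replicate 1 (0.0979), WT replicate 2 (0.0652) or tg/wt replicate 2 (0.0822), that of Itgae without WT replicate 1 (0.0608) or 2 (0.0567), and that of Chl1 without WT replicate 1 (0.0517) or tg/wt replicate 2 (0.0612). The second probe of Jam2 had the opposite sign in tg/wt. The comparisons share the WT arrays.

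The direct comparison of tg/tg with tg/wt, in which slide and genotype cannot be told apart, had 36 of 41 genes past the threshold, 22 higher and 14 lower, beside 74.2% of all tested genes (34.0% higher and 40.2% lower). A change over 2-fold was found in 18, beside 21.0% of all tested genes. Chl1 (6.62, 98.1-fold), Itgam (3.64, 12.5-fold), Selp (2.46, 5.49-fold) and Itgb2 (2.33, 5.03-fold) rose most. Itga8 (-3.90, 14.9-fold lower), Itgb1bp2, Itgae and Itgbl1 (-1.56, 2.95-fold lower) fell most. Itgb6 and Itgb3, which were lowest in tg/wt, rose by 1.36 each (adjusted p = 4.55e-05 and 7.81e-05), more than over WT. Itga4 rose by 0.31 (adjusted p = 0.0198), which did not pass without tg/wt replicate 1 (adjusted p = 0.0855) or without tg/wt replicate 2 (adjusted p = 0.0546). F11r differed by 0.02 (adjusted p = 0.671), and by -0.14 after quantile normalization (adjusted p = 0.0225).

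Probes of the same gene gave a check that does not depend on more arrays. Of the 44 genes 17 had more than 1 probe, and probes were compared where they were well above background on 2 or more arrays and on at least 1 array of both groups. In tg/tg against WT 13 genes had at least 2 such probes, and these had the same sign in 11, the exceptions being Itga3 and Itgb1, with a median range of 0.24 between probes. In tg/wt against WT the signs were the same in 9 of 14, and Cd44, Itga1, Itga3, Itgb3bp and Jam2 had probes on both sides of 0, with a median range of 0.12. In tg/tg against tg/wt they were the same in 11 of 13, the exceptions being Itga1 and Itga3, with a median range of 0.29. The median size of a difference of the tested genes, without its sign, was 0.15 in tg/wt and 0.84 in tg/tg. The other probes of Ncam1 and Itga2 were well above background on at most 1 array, and that of Chl1 on the tg/tg arrays alone, so they could not be compared.

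**Figure D4:**
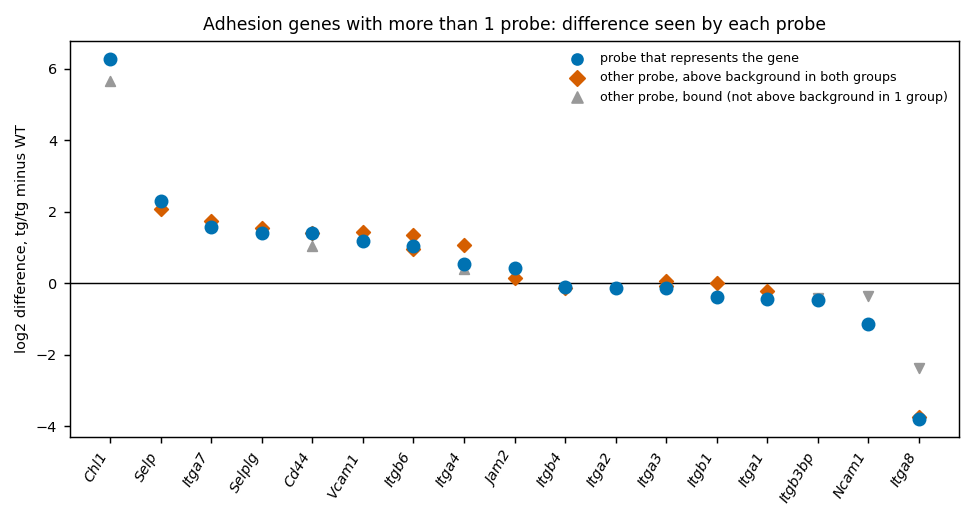
Log2 difference of tg/tg from WT (y axis) seen by each probe of the 17 adhesion genes with more than 1 probe. Blue circles are the probes that represent the genes, and orange diamonds other probes well above background on at least 1 array of both groups. Grey triangles are bounds for probes that were so in 1 group only, and those of Itga4 and Ncam1 rest on 1 such array. The probe that represents Chl1 lies at 6.27, the 2 measured probes of Itga8 at -3.79 and -3.73, and those of Itga3 and Itgb1 on both sides of 0.

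Chl1, Itgam, Itgb2, Selp, Itgal, Selplg, Itgax, Cd44, Vcam1, Icam1, Itgae, Itga8 and Itgb1bp2 passed in tg/tg against WT, in the same direction, under every way of processing the values in which they were tested. Itgb1bp2 was not tested where a gene had to be well above background on every array. A background correction by normexp with the local background as given moved the count most: 23 of the 36 genes called in tg/tg passed under it. Itgam then stood at 1.62, Selp at 1.28, Itga5 at 0.85, Cd47 at 0.82 and Itgb1bp2 at a fitted -2.51, all still past the threshold. The calls of Itga3, Itga4, Itga6, Itga7, Itga9, Itga11, Itgb1, Itgb1bp1, Itgb3, Itgb4, Itgb5, Ncam1 and Nrcam ended, and the signs of Itgb1bp1, Itga3 and Itgb4 turned. With the outlying local backgrounds replaced, the same correction moved 2 of the called genes by more than 1.5 times in tg/tg against WT, Itgb1bp2 to a fitted -2.12 and Ncam1 to -0.40, and both still passed.

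**Figure D5:**
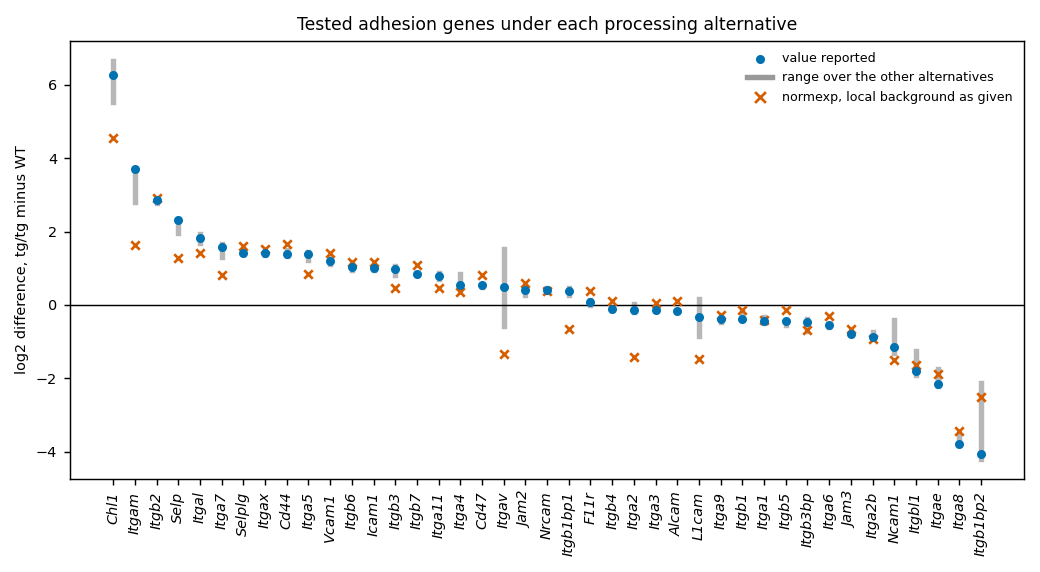
Log2 difference of tg/tg from WT (y axis) of each tested adhesion gene as reported (blue), its range over all other ways of processing (grey bar), and its value after normexp with the local background as given (orange cross). Chl1, Itgam, Itgb2 and Selp stay above 1 and Itgae, Itga8 and the fitted value of Itgb1bp2 below -1 throughout, while Itgav and L1cam spread across wide ranges. The cross of Itga2 lies far below its other values.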

How the data were processed

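Lung RNA of 3 genotypes, 2 arrays each, was analysed from the deposited scanner files. Per the labels' protocols, RNA was purified on columns and labelled with Cy3. Per the file headers, the authors extracted the intensity values with Agilent Feature Extraction 9.5.3.1, while the submitters' processing notes name version 9.1; the processed signal has its background subtracted and differs in scale from array to array. In the deposited series table stands the background-subtracted intensity of the same arrays (largest relative difference 0), on a linear scale, with medians of 88.2, 86.8, 115, 87.0, 74.4 and 92.2 for the 2 WT, the 2 tg/wt and the 2 tg/tg arrays in turn. The authors' genome build for the probe design is not that of the reference used here, so probes carry no coordinates.

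Control spots and outlier marks were left out, spots of a probe averaged, log2 taken and the 75th percentile of each array subtracted. Of 41174 probes 22951 were matched by accession to 16358 symbols of RefSeq. Each gene was represented by the tested probe with the highest mean. Group means were fitted with limma 3.58.1 over all 6 arrays (lmFit, eBayes) in R 4.3.3 with data.table, version 1.17.8, with 3 residual and 1.77 prior degrees of freedom, after tests on simulated data. Where no array of a group was well above background, the fold is a bound against the lowest signal that was. A summed level is log2 of the summed scaled signals of a list's tested genes. Figures used Python 3.11.15, pandas 2.3.3 and matplotlib 3.10.9.

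The genes, lists and alternatives were chosen with earlier results of these data known. The rule for named genes gives array values for Tbx21, the 12 largest rises and 12 largest falls in tg/tg against WT, the 4 and 4 largest in the other comparisons, the beta-2 integrins, selectins, Selplg, Icam1, Vcam1, Cd44 and Cd47, genes whose probes disagree, and up to 3 genes of each other list; Marco, Batf3, Pf4, Sox17, Npnt, Itga9, Itgav, Itga11, Itgb1bp1, F11r, Nrcam, Alcam and L1cam were named after their values were seen. Alternatives were other scalings, normexp with offset 50, the series table (values below 1, which were 15.3%, set to 1), other filters, floors and probe rules, a variance trend, fewer groups, a replicate block, and each array left out once. The fit of only WT and tg/tg lies within slide 1. The array number limits the precision. Some genes of the nerve and Schwann cell list, and that list's counts and summed level, are not reported here.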

Additional observations from a re-analysis of the deposited data

How the results depend on the processing

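The counts of adhesion genes past the threshold in tg/tg against WT and in tg/tg against tg/wt were 36 each and moved by over 1.5 times in no setting but normexp on the median signal with the local background as given, and there in the first comparison only. That setting gave 23 adhesion genes in tg/tg against WT (15 higher, 8 lower, all of them among the 36) and 0 in tg/wt against WT, where limma found 16 at an unadjusted p under 0.05. Over all tested genes it gave 4121 in tg/tg against WT, 3310 in tg/tg against tg/wt and 1 in tg/wt against WT (2964 unadjusted), and it moved the median of all genes in tg/tg against WT from -0.05 to -0.17. It reversed Itga2 (-1.40) and Jam2 (0.093) in tg/wt against WT and Itga3 (0.045), Itgb1bp1 (-0.66) and Itgb4 (0.11) in tg/tg against WT; the cause was not tested. Without a filter on dim probes, which adds genes to the adjustment, tg/wt against WT had 8 adhesion genes and 2408 genes in all. Leaving out 1 array at a time gave 34 to 36 adhesion genes in tg/tg against WT, 33 to 37 in tg/tg against tg/wt and 4 to 16 in tg/wt against WT, and over all genes 8589 to 9534, 8716 to 9316 and 1453 to 3577. Of the called adhesion genes, 23 of 36 in tg/tg against WT, 24 of 36 in tg/tg against tg/wt and 0 of 17 in tg/wt against WT passed in the same direction under all alternatives in which the gene was tested. The labels number the replicates of each group 1 and 2, and deviations of same-numbered arrays correlated at 0.129 (WT with tg/wt), -0.048 (WT with tg/tg) and -0.0458 (tg/wt with tg/tg). Such correlations cannot settle whether same-numbered arrays were paired. With the replicate block, 35, 12 and 36 adhesion genes passed in tg/tg against WT, tg/wt against WT and tg/tg against tg/wt, and 9447, 2614 and 9363 genes in all. Signal over background limits Itgav, L1cam, Itga2 and Ncam1, and Sele, Madcam1 and Itgb2l were too dim to test.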
